A study of Mus musculus with 3 samples.

Results

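The 9 genes described here encode the class I major histocompatibility complex (MHC) molecules of the mouse and the proteins that load them with peptide. They are the heavy chain genes H2-K1, H2-D1, H2-T23 and H2-Q7, the light chain gene B2m, the peptide transporter genes Tap1 and Tap2, Tapbp, and the transcriptional activator gene Nlrc5. Every transcript model of 3 long-read PacBio libraries that lay on the strand of 1 of these genes and shared most splice sites with it (without introns, most exonic bases) was taken as an isoform of that gene. This gave 169 of the 34238 isoforms of the series, from 9 of the 6961 genes seen.

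All 3 libraries were made from naive CD4+ T cells of spleens and lymph nodes of young adult male WT mice, C57BL/6N by the study's methods, with 1 library per condition. The cells of the naive library were left unstimulated, while the cells of the other libraries were stimulated for 48 h with anti-CD3 and anti-CD28 and sorted by dilution of a division dye into cells with 0 divisions (undivided) and cells with 2 divisions. Naive held 10527 isoforms, undivided 12602 and 2 divisions 11109. The naive library was run on a different sequencer cell from both activated libraries, so that activation and sequencer cell cannot be told apart. The exon tables used here give positions without read counts. A number of isoforms therefore counts distinct models and not molecules, no test between conditions was possible, and fewer cells of a type and less RNA per cell cannot be told apart. Of the CD4 T cell markers, 8 of 8 genes were seen in naive, 7 of 8 in undivided and 7 of 8 after 2 divisions. B cell markers were seen for 3 of 5 genes in naive (6 isoforms) and 0 of 5 in each activated library, and class II and antigen presenting cell markers for 5, 2 and 1 of 7 genes in naive, undivided and 2 divisions. Myeloid markers were seen for 1, 0 and 0 of 5 genes, and CD8 T and NK cell markers for 1, 2 and 1 of 5. Class I genes are active in nearly all nucleated cells. Whether the B cell transcripts of the naive library came with class I isoforms of other cells was not tested.

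A class I molecule is a heavy chain held together with β2-microglobulin and a short peptide, and it shows the inside of a cell to CD8 T cells and natural killer cells. The peptides are made by the proteasome, carried into the endoplasmic reticulum by the TAP transporter, a pair of Tap1 and Tap2, and fitted into the groove with the help of tapasin, the product of Tapbp. NLRC5 switches on the heavy chain, light chain and transporter genes, and is known to be needed for normal class I levels on T cells. In the heavy chain genes exon 1 encodes the signal peptide, and exons 2, 3 and 4 encode the α1, α2 and α3 domains. In H2-K1, H2-D1 and H2-T23 exon 5 encodes the transmembrane segment, and the short exons after it encode the cytoplasmic tail. In H2-Q7 exon 5 is the last coding exon.

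The sequences on which the account of tails and 3′ ends turns are given here, all read from GRCm38, and written 5′ to 3′ on the strand of the gene. At the last exon of H2-K1 and H2-D1, 2 splice acceptors lie 27 nt apart, and they are shown because the choice between them sets the length of the tail (lower case intron, capitals exon).
H2-K1 exon 8, upstream acceptor, chr17:33996489-33996518, minus strand: atgttgtcttcacagTGATGGTTCATGACC
H2-D1 exon 8, upstream acceptor, chr17:35266824-35266853, plus strand: atgttgtcttcacagTGATGGTTCATGACT
H2-K1 exon 8, downstream acceptor, chr17:33996462-33996491, minus strand: accctcattctctagCGTGAAGACAGCTGC
H2-D1 exon 8, downstream acceptor, chr17:35266851-35266880, plus strand: actctcattctctagCGTGAAGACAGCTGC

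The upstream pair matched at 29 of 30 bases and the downstream pair at 29 of 30 bases, whereas the upstream acceptor of H2-K1 and the downstream acceptor of H2-D1 matched at 9 of 30 bases. GENCODE gave both acceptors for H2-K1, but only the downstream acceptor for H2-D1. For the 3′ ends, the bases up to the last base of an isoform are shown, with each poly(A) signal AATAAA or ATTAAA in capitals.
H2-K1, the only end, chr17:33996028-33996057, minus strand: aagaAATAAAtgatagatgAATAAActtcc
H2-D1, proximal end in the 3′ UTR, chr17:35267318-35267347, plus strand: gtacttacatataatAATAAAtaagtcttt
H2-D1, distal end in the 3′ UTR, chr17:35267459-35267488, plus strand: ttttttgaagaAATAAAtggcagatgaagg
H2-D1, end inside intron 3, chr17:35265032-35265061, plus strand: agggttctcATTAAAggagagattcttgtg
H2-T23, the only end, chr17:36030018-36030047, minus strand: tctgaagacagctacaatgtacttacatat

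Seen over the 3 libraries, the class I heavy chain genes were rich in isoforms. In naive, undivided and 2 divisions, H2-K1 had 8, 13 and 9 isoforms, H2-D1 had 12, 15 and 14, H2-T23 had 5, 7 and 6, and H2-Q7 had 8, 7 and 6. H2-D1 was the member with the most isoforms in each library, with rank 27, 18 and 17 among all genes. B2m had 4, 3 and 3 isoforms, Tap1 6, 5 and 5, Tap2 6, 5 and 4, Tapbp 3, 7 and 4, and Nlrc5 1, 2 and 1. The median over the members was 6, 7 and 5 isoforms, against 1, 2 and 1 over all genes of naive, undivided and 2 divisions.

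**Figure D1:**
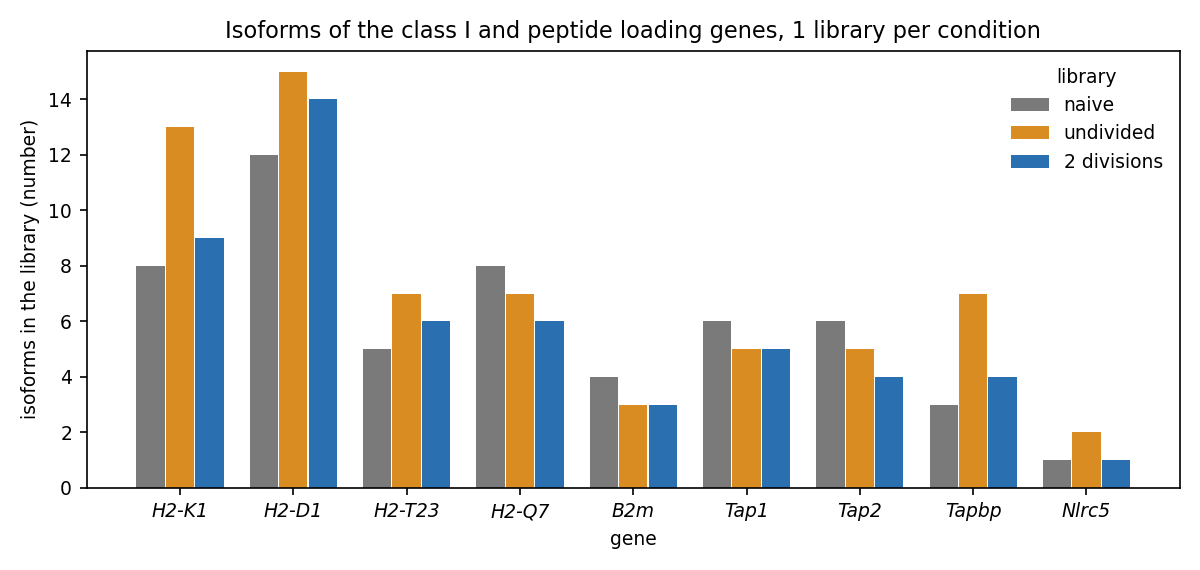
Bars give the number of isoforms (y axis) of each of the 9 genes (x axis) in the naive, undivided and 2 divisions libraries, with 1 library per condition and no error bar. H2-D1 was highest in every library at 12, 15 and 14 isoforms, and Nlrc5 was lowest at 1, 2 and 1.

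In undivided cells 5 of 9 members had more isoforms than in naive, namely H2-K1, H2-D1, H2-T23, Tapbp and Nlrc5, against a background of 49.1% of all genes. Fewer were seen for H2-Q7, B2m, Tap1 and Tap2, 4 of 9 members against 26.6% of all genes. After 2 divisions 4 of 9 members had more isoforms than in naive (43.8% of all genes) and 4 of 9 had fewer (31.9% of all genes). Over all genes of a library the median was 1 or 2 isoforms, against 5 to 7 for the members. A background matched for isoform number was not computed, so these shares are not like for like. Both comparisons share the naive library. The same 4 members, H2-K1, H2-D1, H2-T23 and Tapbp, were higher in both activated libraries (26.9% of all genes), and the 4 members H2-Q7, B2m, Tap1 and Tap2 were lower in both (19.6% of all genes). H2-K1, H2-D1 and Tapbp were the members that differed from naive by more than 2 isoforms, and with 1 library per condition none of these differences has a replicate check.

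Spliced forms of the members were often not listed in the annotation. An isoform was called annotated when its whole series of introns, its intron chain, was that of a GENCODE M21 transcript of its gene. This held for 37.3% of the members' multi-exon isoforms in naive (19 of 51, 95% interval 24.1 to 51.9%), 34.5% in undivided (20 of 58, 22.5 to 48.1%) and 29.4% after 2 divisions (15 of 51, 17.5 to 43.8%). Over all genes the shares were 60.8%, 62.0% and 63.6%. In genes with 5 or more isoforms, a set chosen after the shares had been seen, they were 36.7%, 40.7% and 41.4%, and each lay inside the members' interval. The intervals throughout are exact (Clopper-Pearson), treat models as independent draws, and cover counting error only.

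Of 83 distinct intron chains of the members, 22 were found in all 3 libraries and 45 in 1 library alone. Of the chains seen in undivided cells 28 of 53 (52.8%, 38.6 to 66.7%) were also in naive, beside 45.1% over all genes. Between the activated libraries the members' share was the lower one, with 27 of 46 chains of 2 divisions found in undivided (58.7%, 43.2 to 73%), beside 62.9% over all genes, and 27 of 53 chains of undivided found in 2 divisions (50.9%, 36.8 to 64.9%), beside 55.9%. Of these 3 comparisons, each value over all genes lay inside the members' interval. H2-K1 gave 6 of its 15 chains in every library, H2-D1 5 of 18, H2-T23 3 of 9, H2-Q7 3 of 11, Tap2 2 of 6, Tap1 1 of 12 and Tapbp 1 of 9. These chains were made of 105 distinct introns, of which 82 were annotated. Among the other 23 introns, 11 had GT or GC at the donor and AG at the acceptor, 12 did not, and 18 were seen in 1 library alone.

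H2-K1 encodes the classical heavy chain H-2K and lies on the minus strand of chr17:33996017-34000347 with 8 exons. The chain of H2-K1-201, which gives a reading frame of 369 residues from the annotated start codon, was found in 1 isoform of each library at a length of 1581 nt. A second chain present in each library, H2-K1-205, used the downstream acceptor of exon 8 (boundary 33996476 in place of 33996503), and its frame of 360 residues was 9 codons shorter in the tail. The downstream acceptor was used in 3 of 8 isoforms spliced to exon 8 in naive (37.5%, 8.52 to 75.5%), 2 of 12 in undivided (16.7%, 2.09 to 48.4%) and 3 of 9 after 2 divisions (33.3%, 7.49 to 70.1%). The 3 intervals overlapped, but they count models and not molecules, so that a difference in acceptor use between the libraries could not be tested.

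The α2 exon of H2-K1 also had 2 acceptors in each library. The annotated acceptor 36 nt downstream of the reference (boundary 33999510, H2-K1-216) was used in 2 of 5, 1 of 7 and 2 of 6 isoforms of naive, undivided and 2 divisions, and the full-length form had a frame of 357 residues. In naive and after 2 divisions 1 isoform joined this shorter exon 3 to the short exon 8, with 348 residues. An acceptor 60 nt upstream of exon 2 (boundary 34000063) gave a frame of 389 residues in 1 isoform of undivided and 1 of 2 divisions and in 0 of 6 naive isoforms. Exon 2, which encodes the α1 domain, was left out between annotated sites in 1 undivided isoform alone, with a frame of 279 residues that ended at the annotated stop codon.

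The intron between the α1 and α2 exons was the one most often kept in H2-K1. Intron 2 (187 nt, chr17:33999547-33999733) was retained in 2 of 7 isoforms that spanned it in naive, 3 of 11 in undivided and 3 of 9 after 2 divisions. In the spliced isoforms with the start codon that kept it, the frame closed after 113 residues, at least 923 nt before the last splice junction. A stop codon far upstream of the last junction is the arrangement that nonsense-mediated decay is known to act on. Introns 3 and 4, which flank the α3 exon, were retained in 0 isoforms of any library, out of 8, 11 and 9 spanning isoforms for intron 3 and 8, 13 and 9 for intron 4. The 3 introns of the tail (5, 6 and 7) were retained together in 1 undivided isoform, a model of 2 exons with the chain of H2-K1-209.

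H2-D1 encodes the classical heavy chain H-2D and lies on the plus strand of chr17:35262730-35267499 with 8 exons. Its reference chain, H2-D1-202, with 362 residues, had 2 isoforms in each library. In contrast to H2-K1, the exon 8 acceptor of the reference was the downstream one, and the upstream acceptor (boundary 35266839) was not annotated. The upstream acceptor was used in 1 of 7 isoforms spliced to exon 8 in naive, 1 of 9 in undivided and 0 of 10 after 2 divisions, the last of which allows a share of up to 30.8%. Its frame of 371 residues was 9 codons longer than the reference. H2-K1 and H2-D1 were 88.6% identical over their coding sequences, and whether consensus sequences of one were placed on the other was not tested.

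The last intron of the tail was often retained in H2-D1. Intron 7 (139 nt, chr17:35266727-35266865) was retained in 5 of 12 spanning isoforms in naive (41.7%, 15.2 to 72.3%), 6 of 15 in undivided (40%, 16.3 to 67.7%) and 3 of 13 after 2 divisions (23.1%, 5.04 to 53.8%). In H2-K1, intron 7 (112 nt) was retained in 0 of 8, 1 of 13 and 0 of 9 isoforms of naive, undivided and 2 divisions. When intron 7 was the only H2-D1 intron kept, the frame ran into it and closed after 375 residues, in a form found with 2 isoforms in each library, or after 380 residues in 1 undivided isoform that also had a longer exon 6. When introns 6 and 7 were kept together, the frame closed after 349 residues, in 1 naive and 1 undivided isoform whose other introns were spliced. The other tail introns were seldom kept, with intron 6 retained in 1 of 12, 2 of 15 and 1 of 13 isoforms of naive, undivided and 2 divisions, and intron 5 in 1 of 12, 0 of 15 and 0 of 13. The stop codons in intron 6 or intron 7 lay in the terminal exon, unlike those of the retained intron 2.

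Intron 2 of H2-D1 (190 nt, chr17:35263649-35263838) was retained in 4 of 12, 3 of 14 and 1 of 13 spanning isoforms of naive, undivided and 2 divisions. Its frame closed after 116 residues, and the stop codon lay 923 nt before the last junction when every other intron was spliced, the same distance as in H2-K1. An acceptor 20 nt inside exon 3 (boundary 35263859) belonged to the only unlisted intron of the members that all 3 libraries shared, and it gave a frame of 118 residues with its stop codon 707 nt before the last junction. It was used in 1 of 8, 1 of 10 and 2 of 11 isoforms of naive, undivided and 2 divisions.

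The activated libraries together held several H2-D1 forms that the single naive library did not, and the reverse was also seen. A form with introns 2, 5 and 7 retained was in naive alone, and other forms were in naive and undivided but not after 2 divisions. An annotated acceptor 15 nt upstream of exon 6 (boundary 35266467) was used in 1 of 15 undivided isoforms and 1 of 13 after 2 divisions, against 0 of 11 in naive (interval up to 28.5%). The matching acceptor of H2-K1 (boundary 33996874), which shared 28 of 30 bases with it, was used in 1 of 9 isoforms after 2 divisions, 0 of 12 in undivided and 0 of 8 in naive. Exon 7 (39 nt) was left out in 1 isoform after 2 divisions, with 349 residues and the annotated stop codon. Exon 3 was left out in another isoform of that library. Each of these forms rests on 1 isoform per library.

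**Figure D2:**
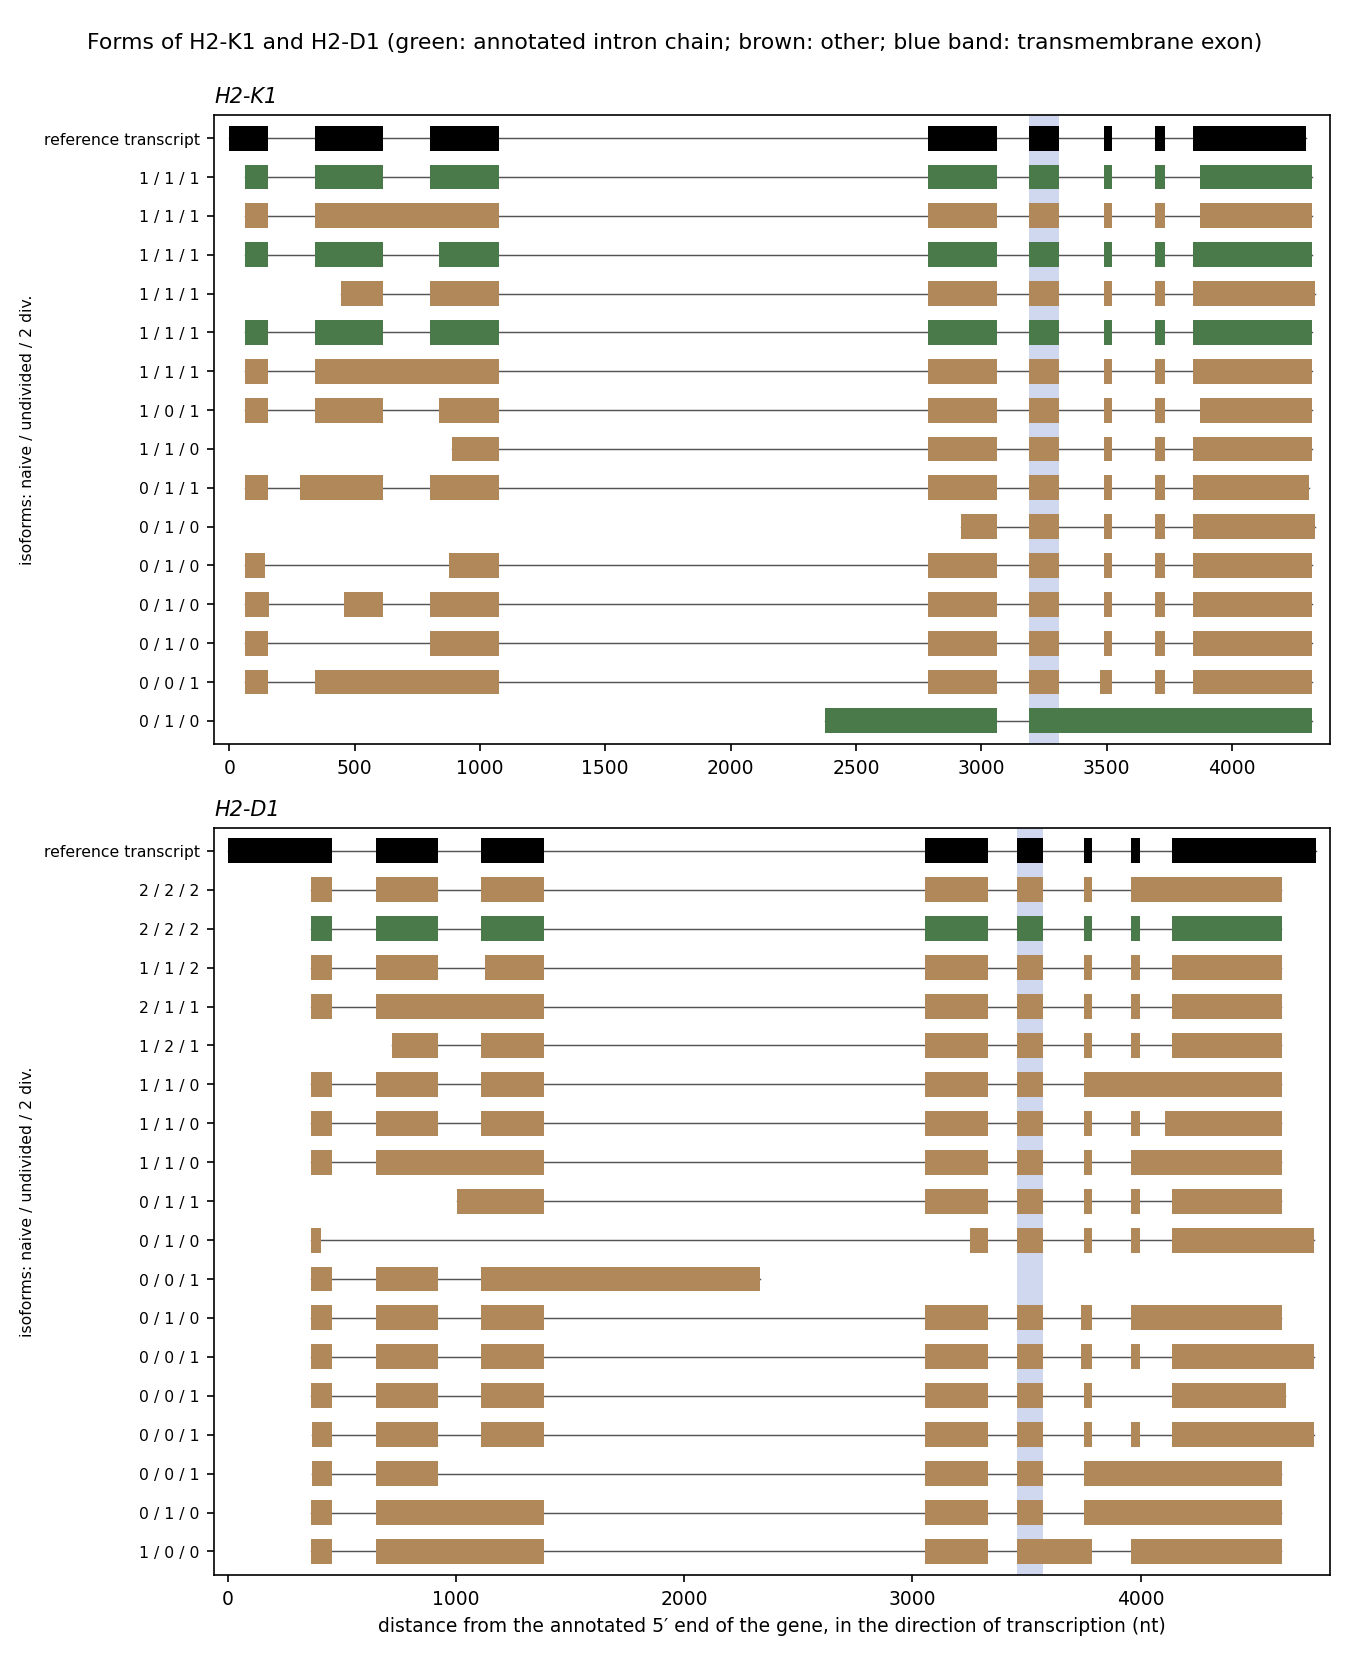
Each row is 1 distinct form of H2-K1 or H2-D1 drawn to scale by distance from the annotated 5′ end of the gene (x axis, nt), with boxes for exons and the number of isoforms in naive, undivided and 2 divisions at its left. A form groups isoforms with the same intron chain and is drawn from 1 of them. Ends and retained introns can therefore differ within a row. The reference transcript is black, forms with an annotated intron chain are green, other forms are brown, and the blue band is the transmembrane exon. Retained introns of H2-K1 were mostly intron 2, with the tail introns kept in 1 form, while forms of H2-D1 kept intron 2, intron 7 or both.

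H2-T23 encodes the heavy chain of Qa-1, a non-classical class I molecule that presents leader peptides of other class I chains to the CD94/NKG2A receptor of natural killer and T cells. It lies on the minus strand of chr17:36029773-36032855, with 7 exons and a reference frame of 357 residues. Only 1 isoform in each library had the fully spliced reference chain. Intron 3 (540 nt, chr17:36031098-36031637) was retained in 3 of 5, 4 of 7 and 3 of 6 spanning isoforms of naive, undivided and 2 divisions. Intron 6, the last intron (139 nt, as intron 7 of H2-D1), was retained in 3 of 5, 3 of 7 and 3 of 6. The frames that entered intron 3 closed after 254 residues, before the α3 and transmembrane exons, while 1 undivided isoform that also kept intron 1 had a frame of 22 residues. An unlisted acceptor 247 nt upstream of exon 4 (boundary 36031344) was used in 1 naive and 1 undivided isoform, with 210 residues, and in 0 isoforms after 2 divisions. An unspliced model over the gene was found in undivided alone.

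H2-Q7 encodes a heavy chain of Qa-2, a class I molecule held on the membrane by a lipid anchor. It lies on the plus strand of chr17:35439155-35443773. Its reference H2-Q7-201 has 7 exons, and the frame of 334 residues ends in exon 5, so that exons 6 and 7 are not coding. Exon 5 holds the most hydrophobic stretch of the frame, and only for that reason is it called the transmembrane exon here. The reference chain had 2 isoforms in naive, 1 in undivided and 1 after 2 divisions. A chain without exons 4 and 5 (H2-Q7-204), which lacks both the α3 and the transmembrane exon, had 1 isoform in each library and a frame of 215 residues. Introns 4 and 5, on each side of the transmembrane exon, were retained in 5 and 4 of 8 naive isoforms, in 2 and 2 of 5 undivided isoforms, and in 2 and 2 of 5 isoforms after 2 divisions. H2-Q7 was 93.2% identical to H2-Q6 over the coding sequence, which had 4, 6 and 6 isoforms in naive, undivided and 2 divisions. How the mapping divided sequences between these copies was not tested.

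**Figure D3:**
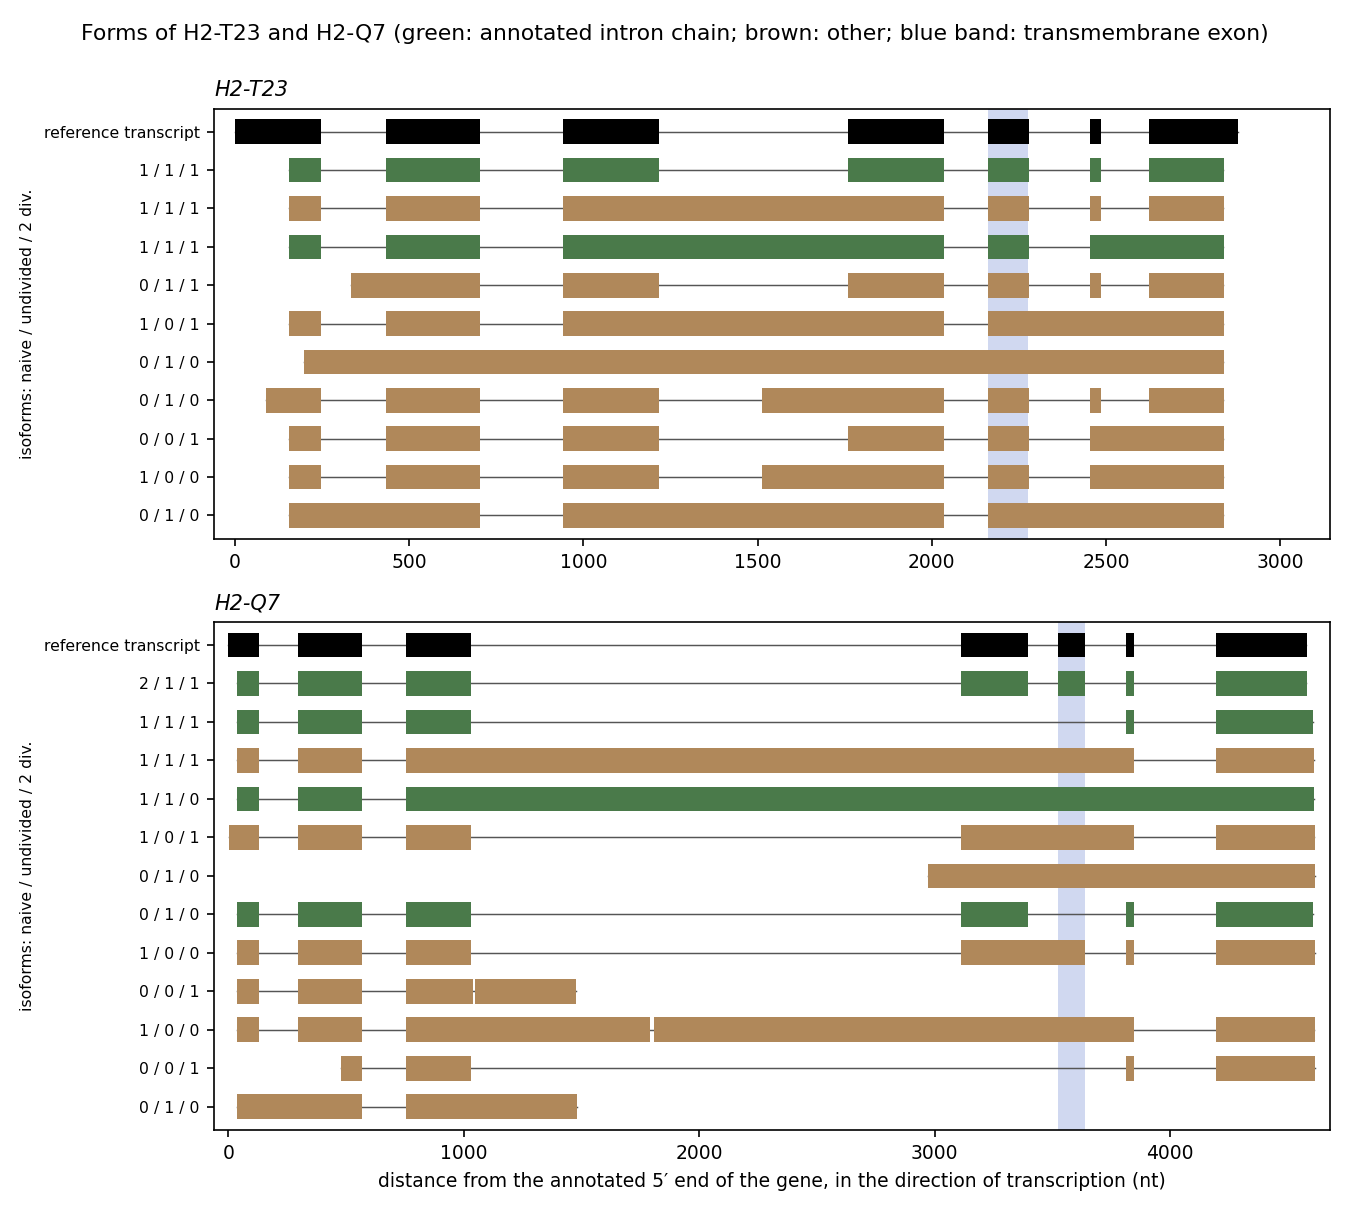
Forms of H2-T23 and H2-Q7 by distance from the annotated 5′ end of the gene (x axis, nt), with the number of isoforms in naive, undivided and 2 divisions at the left of each row, and the reference transcript in black. Green forms have an annotated intron chain, brown forms do not, and the blue band is the transmembrane exon (in H2-Q7, the hydrophobic exon 5). It is missing from 3 forms of H2-Q7 that continue past it.

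The transmembrane exon was covered in nearly all heavy chain isoforms that spanned it, whatever their reading frame. It was located as the coding exon with the centre of the most hydrophobic stretch of 19 residues, and was exon 5 in each heavy chain gene (117 to 120 nt). For H2-Q7, whose product is held by a lipid anchor, the name stands for this hydrophobic exon alone. Among isoforms with exons on both sides it was present in 32 of 33 in naive (97.0%, 84.2 to 99.9%), 38 of 40 in undivided (95%, 83.1 to 99.4%) and 31 of 33 after 2 divisions (93.9%, 79.8 to 99.3%). All isoforms without it were of H2-Q7, with 1 of 8 in naive, 2 of 5 in undivided and 2 of 5 after 2 divisions. In H2-K1, H2-D1 and H2-T23 it was present in all such isoforms of each library. However, frames of 113 residues in H2-K1, 116 or 118 in H2-D1 and 254 or 210 in H2-T23 closed before it. So did frames of 230 or 318 residues in H2-Q7. Presence of the exon therefore does not mean that it is translated. The undivided library also had the H2-Q7-203 chain, in which the transmembrane exon alone was skipped, with 310 residues.

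A few heavy chain isoforms ended before the transmembrane exon, and they were found in the activated libraries alone. H2-Q7 ended in intron 3 near 35440635 in 2 undivided isoforms and 1 isoform after 2 divisions, against 0 of 8 in naive. There was no AATAAA or ATTAAA in the 50 nt before this end, and 1 A in the 20 nt after it. The undivided isoform with 3 exons had a frame of 230 residues. H2-D1 ended in intron 3 at 35265061 in 1 isoform after 2 divisions, against 0 of 15 in undivided and 0 of 12 in naive. There the ATTAAA signal shown above began 20 nt before the end, 4 of the next 20 bases were A, and the frame closed after 280 residues.

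Across the members, isoforms with a retained intron were frequent. An intron was called retained when 1 exon covered an annotated intron with 10 nt on each side, and the intron was spliced in another isoform of the series. The share was 43.4% in naive (23 of 53, 29.8 to 57.7%), 32.8% in undivided (21 of 64, 21.6 to 45.7%) and 32.7% after 2 divisions (17 of 52, 20.3 to 47.1%). Over all genes it was 16.4%, 11.2% and 10.2%. In genes with 5 or more isoforms, chosen as above, it was 28.5%, 17.6% and 14.6%. The values over all genes and over genes with 5 or more isoforms lay below the members' interval in each library, and the naive value was the highest in each of the 3 sets. The intervals of the members overlapped between the libraries.

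**Figure D4:**
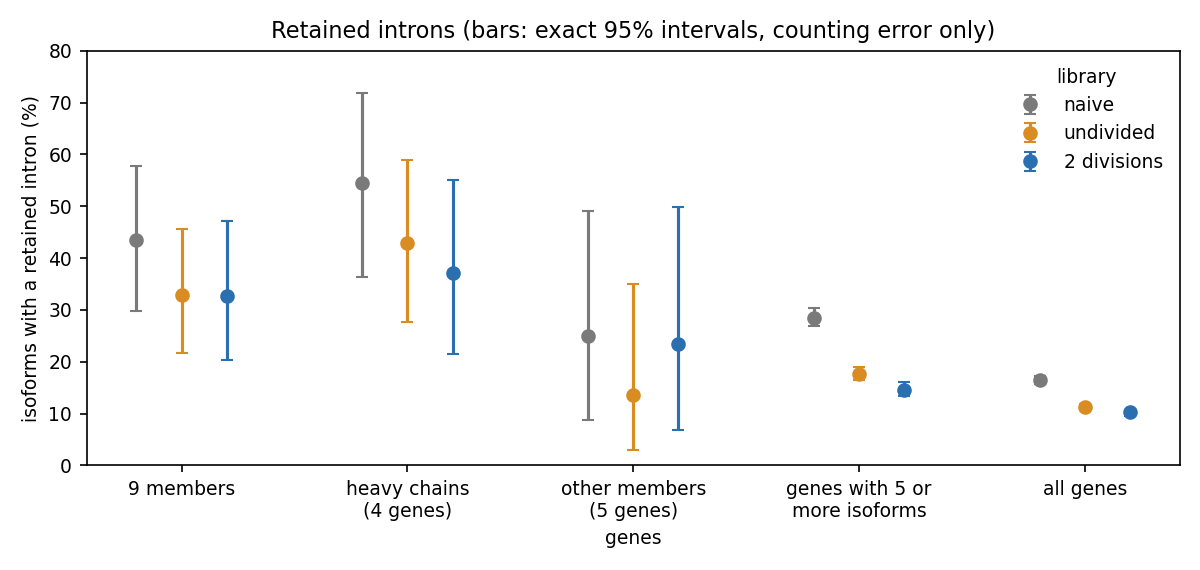
Percent of isoforms with a retained intron (y axis) for the 9 members, their 4 heavy chain genes, the other 5 members, genes with 5 or more isoforms and all genes (x axis), by library, with exact 95% intervals for counting error. The 4 heavy chain genes sat at 54.5%, 42.9% and 37.1% in naive, undivided and 2 divisions, above 16.4%, 11.2% and 10.2% for all genes.

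The heavy chain genes carried most of these isoforms. They had a retained intron in 18 of 33 isoforms in naive (54.5%, 36.4 to 71.9%), 18 of 42 in undivided (42.9%, 27.7 to 59.0%) and 13 of 35 after 2 divisions (37.1%, 21.5 to 55.1%). The other 5 members had one in 5 of 20 (25.0%, 8.66 to 49.1%), 3 of 22 (13.6%, 2.91 to 34.9%) and 4 of 17 isoforms (23.5%, 6.81 to 49.9%). All of these were of Tap1 and Tap2. For these 5 members, the values over all genes and over genes with 5 or more isoforms lay inside the interval in each library. B2m, Tapbp and Nlrc5 had 0 isoforms with a retained intron in each library. For a count of 0, the interval reached 60.2% for the 4 naive B2m isoforms and 41.0% for the 7 undivided Tapbp isoforms.

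Frames of the multi-exon isoforms were read from the annotated start codon. The stop codon lay over 50 nt before the last junction in 20 of 48 isoforms of the members in naive (41.7%, 27.6 to 56.8%), 16 of 47 in undivided (34.0%, 20.9 to 49.3%) and 15 of 44 after 2 divisions (34.1%, 20.5 to 49.9%). Over all genes the share was 20.8%, 16.8% and 14.9%, and in genes with 5 or more isoforms 37.1%, 27.7% and 25.0%. The values of genes with 5 or more isoforms lay inside the members' interval in each library. H2-T23 had the highest count among the heavy chains in proportion, with 4 of 5, 4 of 5 and 3 of 5 isoforms. B2m had none, with 3, 2 and 2 spliced isoforms that all ended at the annotated stop codon.

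B2m encodes β2-microglobulin, the invariant light chain, and lies on chr2:122147686-122153083 with 4 exons. Every spliced isoform had the B2m-201 chain and the full frame of 119 residues. They differed in the 3′ UTR. It was 254, 254 and 249 nt long at the shorter end and 434 nt at the longer end in each library. At the longer end, 122153069, 17 of the next 20 bases were A, so that it was an A-rich site. No AATAAA or ATTAAA was found in the stretch searched before it. The shorter end near 122152889 had an AATAAA before it and 5 A in the next 20 bases. An isoform with a 3′ UTR of 212 nt, ending at 122152847, was found in naive alone, and there 12 of the next 20 bases were A. Each library also had a single-exon model of 1665 or 1666 nt that began within 1 nt of the annotated start and ended in intron 1 at 122149351, where 15 of the next 20 genomic bases were A.

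Tap1 and Tap2 encode the chains of the transporter and lie near each other on chr17. Tap1 (chr17:34187553-34197225, 11 exons) had its reference chain in 1 isoform of each library, with 724 residues. Its most frequent retained intron was intron 7 (168 nt, chr17:34193317-34193484), kept in 2 of 5, 1 of 5 and 2 of 5 spanning isoforms of naive, undivided and 2 divisions. This intron holds a whole number of codons and no stop codon in the frame, and the form that kept it alone had 780 residues and the annotated stop codon, in 1 naive isoform and 2 isoforms after 2 divisions. A further undivided isoform, with 777 residues, kept intron 7 apart from a gap of 9 nt and was not counted as retained. The gap had CT and TT at its ends in place of GT and AG. Intron 3 was kept in 2 of 6 naive and 1 of 4 undivided isoforms and in 0 of 4 after 2 divisions, and the frame then closed after 260 residues. Of the 12 chains of Tap1, 10 were seen in 1 library alone.

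Tap2 (chr17:34203527-34216321, 12 exons, 702 residues) had its reference chain in 2, 2 and 1 isoforms of naive, undivided and 2 divisions. The annotated form with intron 6 retained (162 nt, Tap2-202) was present with 1 isoform in each library, and its frame closed after 382 residues, 942 nt before the last junction. In each library, 2 isoforms ended in intron 3 at 34207114, with a frame of 202 or 170 residues. At that position, 14 of the next 20 bases were A. A first exon ending at 34205194, inside intron 1 of the reference, was used in 1 naive isoform and 1 isoform after 2 divisions and in 0 undivided isoforms. In naive it led to the full frame of 702 residues.

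Tapbp encodes tapasin and lies on chr17:33915899-33929292. At exon 7 it has 2 annotated acceptors 3 nt apart, shown here with capitals for the exon.
Tapbp exon 7, upstream acceptor, chr17:33926612-33926641, plus strand: ctctctcttccccagTAGCTGCCTACTGGA
Tapbp exon 7, downstream acceptor, chr17:33926615-33926644, plus strand: tctcttccccagtagCTGCCTACTGGACCA

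The downstream acceptor shortens the frame by 1 codon, to 465 residues from the reference of 466. It was used in 1 of 3 isoforms in naive (33.3%, 0.84 to 90.6%), 4 of 5 in undivided (80%, 28.4 to 99.5%) and 4 of 4 after 2 divisions (100%, 39.8 to 100%). The naive and activated intervals overlapped widely, and a difference between the libraries could not be tested with models as the unit. Most other variation of Tapbp was in its last exon. Of 7 unlisted introns, 6 lay inside the 3′ UTR, and these lacked the pairing of GT or GC at the donor with AG at the acceptor. They removed 138 to 210 nt, and 2 of them (138 and 210 nt) were found in both activated libraries and not in naive. These 6 introns had 4 to 17 identical bases across their boundaries, and whether they were made by splicing was not tested. Since the stop codon lies in the same exon, they also set the stop over 50 nt before the last junction in 2 naive, 3 undivided and 3 isoforms after 2 divisions.

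Nlrc5 encodes the activator of class I transcription and spans chr8:94434356-94527272, with 49 exons in the reference. No isoform held its start codon. Naive and undivided each had an unspliced model that ended in intron 1 of a longer annotated transcript at 94436864, where 18 of the next 20 bases were A. Isoforms of the 3′ part were found in the activated libraries alone, with 16 exons in undivided and 5 exons after 2 divisions, both ending within 1 nt of the annotated end at 94527264. With 1 or 2 isoforms per library, a difference between the libraries was not detectable at this depth.

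The members had 20 distinct 3′ ends over the libraries, after ends within 24 nt were merged, with 17 in naive, 16 in undivided and 15 after 2 divisions. Without ends at A-rich sites (at least 12 A in the next 20 genomic bases) there were 7 in naive, 9 in undivided and 11 after 2 divisions, so that the order of the libraries was turned round. More than 1 end was seen for 5, 5 and 4 of 9 members in naive, undivided and 2 divisions, beside 27.5%, 30.6% and 28.9% of all genes. Among genes with 5 or more isoforms, however, 4 of 6, 3 of 7 and 2 of 5 members had more than 1 end, beside 81.3%, 79.9% and 81.9%. H2-K1 with 8, 13 and 9 isoforms and Tapbp with 3, 7 and 4 each had a single end. H2-K1 ended around 33996028, and its 2 AATAAA copies are in the sequence shown above.

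The 3′ UTR of H2-D1 had 2 ends that were used in all libraries. The proximal end near 35267347 had 9 isoforms in each library, and the distal end near 35267488 had 3 in naive, 6 in undivided and 4 after 2 divisions. The reference chain was found with both ends in naive and undivided, with 3′ UTRs of 477 and 624 nt in naive and 477 and 618 nt in undivided. After 2 divisions, the reference chain had 3′ UTRs of 477 and 496 nt, while other spliced forms of that library reached the distal end. An AATAAA began 14 nt before the proximal and 18 nt before the distal end. The proximal end was also followed by 12 A in 20 nt, and the distal end by 6.

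H2-T23 differed from the other heavy chains in that all its isoforms, 5 in naive, 7 in undivided and 6 after 2 divisions, ended at the same base, 36030018. No AATAAA or ATTAAA lay in the 50 nt before it. The 20 genomic bases after it, chr17:36029998-36030017 on the minus strand, held 15 A, shown in capitals.
H2-T23, after the end: AAtAAAtAAAtAAAtAAAtA

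The nearest annotated end lay 2 nt away. Genomic runs of A can be primed by oligo(dT), and their part in these ends was not tested. In all, 43.4% of the members' isoforms in naive (23 of 53, 29.8 to 57.7%), 34.4% in undivided (22 of 64, 22.9 to 47.3%) and 32.7% after 2 divisions (17 of 52, 20.3 to 47.1%) ended at such A-rich sites, beside 26.1%, 20.4% and 21% over all genes. In genes with 5 or more isoforms the shares were 30.8%, 24% and 25.2%, each inside the members' interval. H2-D1 and H2-T23 gave most of them. No end of H2-K1 or Tapbp was A-rich.

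**Figure D5:**
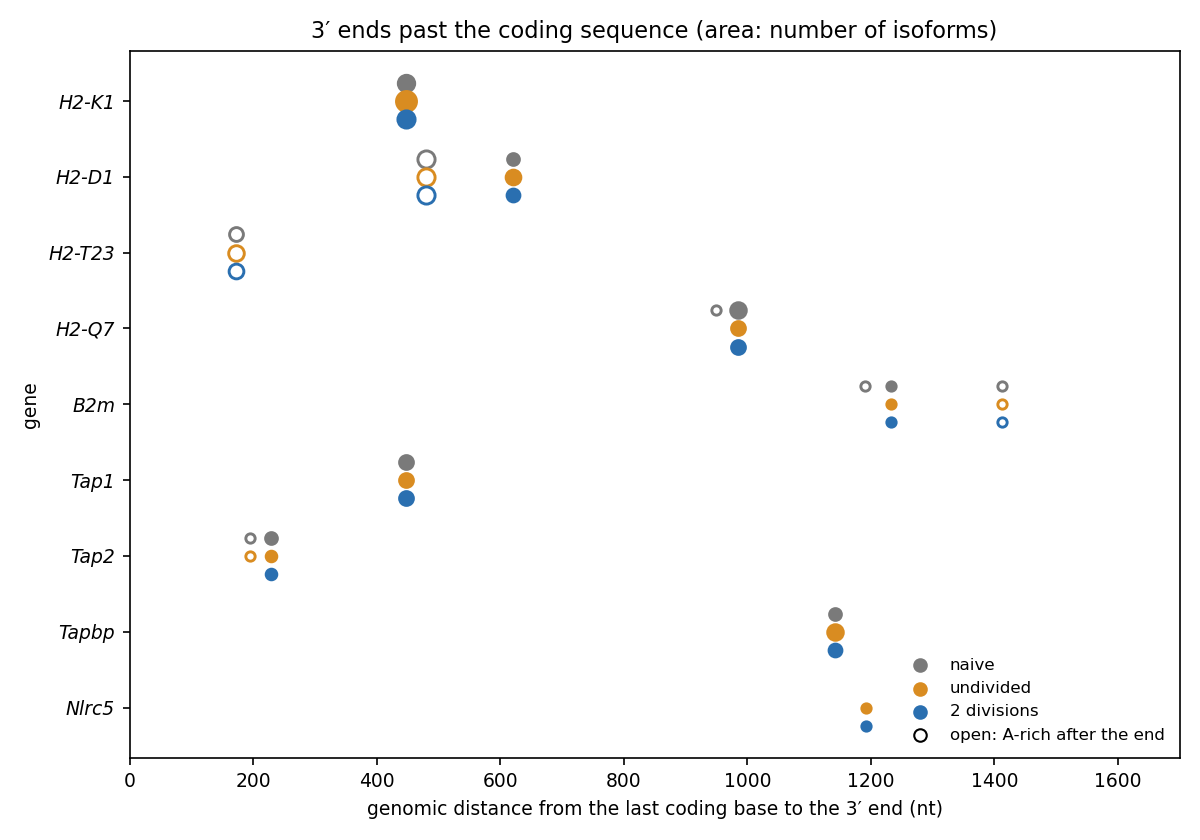
Each point is a 3′ end of 1 gene (y axis) by its genomic distance past the last coding base of the reference (x axis, nt), with its area set by the number of isoforms in naive, undivided and 2 divisions, and open points for ends followed by at least 12 A in 20 nt. Ends inside introns before the last coding base are not drawn. H2-D1 had both its ends in every library, and all H2-T23 ends lay at 1 open point.

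A list of 47 other genes of the class I pathway was set beside the members, with other class I heavy chains and class I-like molecules, chaperones, peptidases, proteasome subunits and activators, the Sec61 channel and transcription factors. Of these, 28 were seen in naive with 89 isoforms, 29 in undivided with 130 and 30 after 2 divisions with 97. Of the 33 seen in any library, 10 had more isoforms in both activated libraries than in naive (26.9% of all genes did), 8 had fewer in both (19.6% of all genes), and 15 were equal or split. The largest differences from naive were seen for 2 chaperones of the endoplasmic reticulum. Hsp90b1, which encodes the chaperone GRP94, had 3 isoforms in naive, 19 in undivided and 16 after 2 divisions, and Canx, which encodes calnexin, a chaperone of new heavy chains, had 4, 15 and 8. Irf1, an interferon-responsive activator of class I genes, had 4, 9 and 5. Nfyb, a subunit of the factor NF-Y, which binds class I promoters, had 1, 5 and 1, and the class I heavy chain gene H2-T22 had 6, 4 and 2. Tpp2, which encodes a cytosolic peptidase, had 2, 6 and 1, a difference from naive of 4 isoforms as for Nfyb and H2-T22.

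Among genes outside the members, Il21r had the same numbers of isoforms as H2-K1 (8, 13 and 9), and Apobec3 and Ube2d3 each differed from it by a sum of 3 isoforms over the 3 libraries. Those nearest to H2-D1 were Shisa5, with a sum of 3, Serbp1 with 4 and Cd47 with 5. This likeness rests on 3 libraries and on numbers of isoforms alone.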

How the data were processed

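Long-read PacBio libraries were made by the authors from 3 cell populations, 1 each. The methods state that only polyadenylated consensus reads were kept, that isoseq3 clustered and later collapsed them around a mapping step with pbmm2, and that the transcripts were then annotated with SQANTI3. Minimap2, Subread, mm10 and GRCm38 are named in the submitters' processing notes. Each isoform stands for its collapsed reads whatever their number, and models cut short at the 5′ end can remain as isoforms of their own.

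The deposited values are exon positions (start and end in nt, on GRCm38) of each isoform, with no counts, so depth is given as numbers of isoforms. Positions were set against GENCODE M21 and the GRCm38 sequence with Python 3.11.15 and pysam 0.24.0, and intervals were computed with scipy 1.17.1. The reference transcript of a gene was its principal coding transcript. The transmembrane exon was found by Kyte-Doolittle hydropathy over 19 residues after the first 40 residues. Ends within 24 nt were merged, signals were searched in 50 nt, and an end with at least 12 A in the next 20 nt was called A-rich. Scripts were tested on simulated isoforms. Isoforms off the chromosomes used here (85 in naive, 99 in undivided and 83 after 2 divisions) held no member.

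The named genes were the 9 members, the 5 genes of the pathway list with the largest difference between naive and an activated library (ties by symbol, which left out Tpp2), and the 3 genes nearest in isoform numbers to H2-K1 and to H2-D1. Members, lists and rules were chosen with earlier results of these data known. No p-value was computed, since each condition had a single library. Alternatives were tried for assignment, A-rich ends, chain matching, intron definition and the merging distance.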

Additional observations from a re-analysis of the deposited data

How the results depend on the processing

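Of 48 alternative values, 39 stayed within 1.5 times the count or within the 95% interval of the share. Without isoforms that end at A-rich sites, the members had 30 isoforms in naive in place of 53, 42 in undivided in place of 64 and 35 after 2 divisions in place of 52. They then had 7 distinct 3′ ends in naive in place of 17, 9 in undivided in place of 16 and 11 after 2 divisions in place of 15. This reversed the order of the libraries for ends, and naive went below 2 divisions for isoforms. With a consecutive part of an annotated chain also counted, the share of annotated chains was 56.9% in naive, 60.3% in undivided and 54.9% after 2 divisions. Over all genes it was then 73.6%, 78.1% and 80.7%, each above the members' interval. In genes with 5 or more isoforms it was 55.6%, 66.8% and 70.5%. The naive and undivided values of these genes lay inside the members' intervals (42.2 to 70.7% and 46.6 to 73.0%). Their value after 2 divisions lay above it (40.3 to 68.9%), unlike for whole chains. With at least 2 isoforms required, 19 other pathway genes were seen in undivided and 16 after 2 divisions. The share of heavy chain isoforms with the transmembrane exon and the share with a retained intron stayed within their intervals in all alternatives run. No paired analysis was possible because each condition has 1 library, and no library could be left out of a group. The exon tables used here hold no read support for an isoform, so a form seen in 1 library can be missing from another at this depth.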

Other observations

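Other class I genes, chosen after their values were seen, did not share one direction. H2-Q6, a neighbour and close copy of H2-Q7, had 4 isoforms in naive, 6 in undivided and 6 after 2 divisions, whereas H2-Q7 had 8, 7 and 6. H2-T24, a class I heavy chain gene of the T region, had 4, 1 and 2. Cd1d1, which encodes a class I-like molecule that presents lipids, had 3 isoforms in naive and 0 in each activated library. The immunoproteasome subunit gene Psmb9, which lies beside Tap1, had 5, 6 and 4, and Psmb8 had 3, 2 and 2.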
